A study of Mus musculus with 31 samples.

Results

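Alternative 5′ splice site events are splicing choices in which 1 exon can end at either of 2 positions before it is joined to the same downstream exon. All events that the files type as Alt5Prime were taken, with no use of measured values. They numbered 22, in 22 genes, of 1922 events in the cortex libraries of 31 mice. The list of events differed between 3 sets of files, so 20 were measured in the R6/2 mice, 20 in the Q150 mice and 21 in the Q175 mice, and 19 in all 3 sets. Adar was listed in the Q175 set alone, Add1 in the Q150 set alone, and Bcl11a in the R6/2 and Q175 sets.

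The end of an exon is marked by a 5′ splice site, or donor, that base-pairs with the U1 small nuclear RNA early in spliceosome assembly. When an exon holds 2 usable donors, their strength, the RNA-binding proteins bound nearby and the speed of transcription all help to set which one is cut. A choice that adds a multiple of 3 bases inserts amino acids and keeps the reading frame, and any other length shifts it. In Huntington's disease (HD) an expanded CAG repeat in the huntingtin gene encodes a long glutamine tract, and the cortex is among the affected regions.

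R6/2 mice carry a transgene with the first exon of human mutant huntingtin under the human promoter, and so express a fragment, while both mouse Htt alleles stay in place. There were 3 R6/2 HD and 3 R6/2 wild-type (WT) mice, all 3 months old. The knock-in lines carry the repeat in the mouse's own Htt gene, with 150 (Q150) or 175 (Q175) glutamines on 1 allele and 7 on the other (HET), or with the long tract on both alleles (HOMO). The Q150 line gave 4 HET and 4 HOMO mice and the Q175 line 4 HET and 3 HOMO. Another 10 mice had 7 glutamines from both alleles (knock-in WT), of which WT 1 to 5 share the file set of the Q150 mice and WT 6 to 10 that of the Q175 mice. One knock-in line was 7 and the other 18 months old, but the sources conflict on which, so age and line cannot be told apart. No mouse was treated, and RNA came from 1 hemisphere of each.

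RASL-seq ligates pairs of oligonucleotide probes that lie side by side on a splice junction, so each event has a short count and a long count. The short count was read as use of the upstream donor, which gives the shorter exon and which the files do not spell out, and the long count as use of the downstream donor. The short share is 100 x short / (short + long). Each mouse had 2171709 to 4337557 counts over all events (R6/2 set), 2970207 to 5219877 (Q150) or 3351064 to 5256516 (Q175), and the events described here took between 36555 and 98566 counts per mouse. Of the 11 neuronal markers listed, 3 had events (Gria2, Grin1 and Syt1), and their summed level was 34700 to 38700 CPM (counts scaled to a common library total) in R6/2 WT and 27500 to 32300 in R6/2 HD mice. In the Q150 set it was 35500 to 42900 in WT, 30700 to 38900 in HET and 31100 to 35600 in HOMO mice, and in the Q175 set 31700 to 39900, 32300 to 38300 and 33100 to 38300. Of 9 oligodendrocyte markers, Mag and Mbp had events in the R6/2 set, at 10900 to 13300 CPM in WT and 9000 to 13100 in HD mice. With Mobp as well, the knock-in ranges for WT, HET and HOMO mice were 8100 to 13400, 9550 to 16700 and 8160 to 14600 (Q150) and 8830 to 11000, 7830 to 9080 and 6710 to 11400 (Q175). Pecam1, the 1 endothelial marker of 6 with an event, was at 45.8 to 80.6 in R6/2 WT and 33.4 to 57.6 in R6/2 HD mice, at 42.1 to 138 over the Q150 set and at 942 to 1350 over the Q175 set, which lists 2 Pecam1 events in place of 1. None of the astrocyte or microglial markers had an event, so those cells could not be checked, and the part of cell makeup in the results below was not tested. In a piece of cortex, fewer cells of a type and less RNA per cell cannot be told apart.

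The probe sequences were not used here, so the donors were read from the reference. Each event was matched by gene and by the exact distance from the start of the exon to the acceptor in GENCODE M21 on GRCm38, and all 22 matched exactly 1 exon. The positions in the files themselves mostly lie outside their genes on that build, and none are printed. Of the 22 exons, 17 had exactly 2 annotated donors for that acceptor, 2 had 3 and 3 had 1. Among the 17, the stretch between the donors was 18 to 1600 bases long (median 51), was a multiple of 3 in 12, and lay wholly in coding sequence in 16. The donors of the 8 genes whose short share passed a test against WT are shown because the results turn on them. Each line gives 12 exonic and 15 intronic bases, 5′ to 3′ on the strand of the gene, with capitals for the 3 exonic and 6 intronic bases of the donor itself.

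Clec16a upstream donor, chr16:10595974-10596000, + strand: agaagactaAAGGTACAGagggtggtt
Clec16a downstream donor, chr16:10596022-10596048, + strand: gggagcgtgAAGGTGAGTgtacccggg
Whsc1l1 upstream donor, chr8:25706596-25706622, + strand: cacgagaacAGTGTAACTaatttttat
Whsc1l1 downstream donor, chr8:25706629-25706655, + strand: actgttaccAAGGTAAAAttgctttta
Skil upstream donor, chr3:31113491-31113517, + strand: aggcagagaCAAGTAAGTccacctcca
Skil downstream donor, chr3:31113629-31113655, + strand: acagttgttTAGGTAAGTattcagaag
Sat1 upstream donor, chrX:155215586-155215612, - strand: ggacccctgAAGGTAACCcctgatccc
Sat1 downstream end, chrX:155215105-155215131, - strand: tgataaatgAGGTAAGGTcctattatc
Cnbp first donor, chr6:87845662-87845688, - strand: gccgcggcaGAGGTGGTTttacctcgg
Cnbp second donor, chr6:87845659-87845685, - strand: gcggcagagGTGGTTTTAcctcggata
Cnbp last donor, chr6:87845641-87845667, - strand: cctcggataGAGGTATTTttgtcgaat
Hmgn3 first donor, chr9:83111019-83111045, - strand: ctggagaggAAGGTACTGcaccatctg
Hmgn3 second donor, chr9:83110978-83111004, - strand: aaagttgaaGAGGTACTTtccacaaac
Hmgn3 last donor, chr9:83110817-83110843, - strand: cagcctgcaGAAGTCCCCcacccagca
Klc1 annotated donor, chr12:111789475-111789501, + strand: gagtggaatGGGGTAAGTacagcgcgc
Trio annotated donor, chr15:27747906-27747932, - strand: cagagcaacGGGGTAAGAgtgccaggg

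The donors were scored with a position matrix of 214823 donors of protein-coding genes that begin with GT, and each score is given as its percentile among them. In Clec16a the upstream donor lies at the 12.2 percentile and the downstream donor, 48 bases on, at 96.3. In Whsc1l1 the percentiles are 3.02 upstream and 47.3 for the downstream donor 33 bases away. In Skil both are high, 77.5 and 92.3, with 138 bases between them. The Sat1 downstream end, 481 bases on, belongs to a retained-intron transcript, starts with TA as annotated and was not scored. For Cnbp and Hmgn3, which of the 3 annotated donors the probes read is not known, and for Klc1 and Trio only 1 of the donors is annotated. Among the 16 scored pairs the upstream donor had the higher score in 8. The score difference, upstream minus downstream, correlated with the WT log2 ratio across events that share libraries. The value of r was -0.201 (14 events) in the R6/2 set, 0.152 (14) in the Q150 set and -0.513 (15) in the Q175 set. By rank the correlations were -0.130, 0.178 and -0.318, in the same order.

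Counts of events that passed were close to those of all events. The log2 ratio of short to long counts was compared with the WT mice of the same set by limma, with p adjusted over all events of the set and 0.05 as the threshold. In R6/2 HD mice 5 of 20 passed, against 28.6% of all events. In Q150 HOMO mice 6 of 20 passed, against 23.9%, and in Q150 HET mice 1 of 20, against 3.47%. In Q175 HOMO mice 2 of 21 passed, against 7.07%, and in Q175 HET mice 0 of 21, against 0.598%, with 2 at an unadjusted p under 0.05. HET and HOMO mice were compared with the same WT mice, so their counts are not independent. Without the variance trend of the fit, the calls of Hmgn3 and Cnbp in R6/2 HD, of Clec16a in Q150 HET, of Cnbp and Klc1 in Q150 HOMO and of Clec16a and Klc1 in Q175 HOMO mice were lost, at adjusted p of 0.0642 to 0.150.

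Of the 5 that passed in R6/2 HD, 4 moved toward the upstream donor and 1 away from it, and of the 6 in Q150 HOMO the split was 4 and 2. Over all events that passed, 368 of 498 in R6/2 HD and 354 of 427 in Q150 HOMO moved toward the short form. The median log2 change of the events was 0.0418 in R6/2 HD, against 0.180 for all events, and 0.0828 in Q150 HOMO, against 0.192. It was 0.0178 against 0.103 in Q150 HET, -0.0475 against 0.0411 in Q175 HET and 0.0927 against 0.0683 in Q175 HOMO. The mean short share over the events was 59.0% ± 0.408 in R6/2 WT (SD, n = 3) and 60.9% ± 0.514 in R6/2 HD mice (n = 3), while over all events it was 45.5% and 47.2%. The difference of 1.90 points became 0.589 from summed counts and 0.499 by the median over the events. In the Q150 set it was 59.4% ± 1.16 (WT, n = 5), 60.2% ± 0.210 (HET, n = 4) and 60.5% ± 1.21 (HOMO, n = 4), beside 44.6%, 45.6% and 46.4% over all events. Its HET difference of 0.746 points became 0.422 from summed counts and 0.0723 by the median. The values were 56.8% ± 0.468 (n = 5), 56.6% ± 0.354 (n = 4) and 57.3% ± 0.461 (n = 3) in WT, HET and HOMO mice of the Q175 set, beside 45.0%, 45.2% and 45.6% over all events. There the HOMO difference of 0.562 points became 1.70 from summed counts and -0.742 by the median, and the HET difference of -0.196 became -0.340 from summed counts and -2.05 by the median.

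WT and mutant mice did not overlap in short share for 8 of 20 events in R6/2 HD, where 41.5% of all events did not overlap. Counts of such events were 3 of 20 in Q150 HET (7.39% of all events), 5 of 20 in Q150 HOMO (18.2%), 1 of 21 in Q175 HET (3.48%) and 6 of 21 in Q175 HOMO mice (13.8%). The trend with mutant allele number (0, 1 or 2) passed for 6 of 20 in the Q150 set, against 23.4%, and for 2 of 21 in the Q175 set, against 7.34%. The Q150 calls of Cnbp and Klc1 were lost with centring on the median event and without the variance trend (adjusted p up to 0.391 and 0.331). Both Q175 calls, Clec16a and Klc1, were lost with the series of mouse numbers as a term (adjusted p = 0.158 and 0.0699), a series that goes with allele number in that set.

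Among the genes of transcription and chromatin, Whsc1l1 and Skil had the largest changes past the threshold in R6/2 HD mice. Whsc1l1, now named Nsd3, encodes a histone H3 lysine 36 methyltransferase. Its short share was 46.9%, 45.0% and 39.1% in the 3 R6/2 WT mice and 66.5%, 61.7% and 63.5% in the 3 R6/2 HD mice. The groups lay far apart, and the log2 ratio rose by 1.19 (SE 0.16, adjusted p = 0.000149).

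In the Q150 set the Whsc1l1 share was 46.0%, 43.1%, 41.8%, 59.1% and 52.7% in WT 1 to 5. It was 57.4%, 55.1%, 52.8% and 70.2% in HET and 67.2%, 64.3%, 75.0% and 65.2% in HOMO mice. No HOMO mouse fell within the WT range, with a change of 1.18 (SE 0.22, adjusted p = 0.000429), while HET mice overlapped with WT (0.62, SE 0.22, adjusted p = 0.126). In the Q175 set the share was 46.1% ± 6.1 in WT (n = 5), 49.8% ± 2.7 in HET (n = 4) and 51.2% ± 3.7 in HOMO mice (n = 3), and neither change passed. With the series of mouse numbers as a term, the Q150 HET change was 0.71 (adjusted p = 0.00178).

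Skil encodes SnoN, a corepressor of SMAD proteins in TGF-β signalling. The upstream donor had a short share of 66.7%, 61.3% and 64.7% in R6/2 WT and 80.8%, 80.2% and 73.4% in R6/2 HD mice. The groups did not overlap, and the log2 ratio rose by 1.00 (SE 0.18, adjusted p = 0.00108). The Q150 set had means of 65.3% ± 2.8 in WT, 69.2% ± 1.7 in HET and 68.8% ± 1.6 in HOMO mice, and the Q175 set 68.2% ± 4.4, 67.0% ± 1.6 and 70.3% ± 1.6, with no change past the threshold.

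Hmgn3, a nucleosome-binding protein of the HMGN family, went the other way in R6/2. Its short share was 87.1%, 85.5% and 87.1% in WT and 80.9%, 83.4% and 81.8% in HD mice, without overlap, and the log2 ratio fell by 0.50 (SE 0.12, adjusted p = 0.00754). In the knock-in mice the group means stayed between 84.6% and 86.8%.

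The other nuclear regulators did not pass in any comparison with WT as fitted. With centring on the median event, Brpf1 passed in Q150 HOMO (-0.47, adjusted p = 0.0348) and Smarcb1 in R6/2 HD mice (-0.40, adjusted p = 0.0373). Brpf1, a scaffold of histone acetyltransferase complexes, had a mean share of 84.2% in Q150 WT and 81.6% in Q150 HOMO mice, and 86.6% in Q175 WT and 83.7% in Q175 HOMO mice, the latter without overlap. Smarcb1 and Smarcc2, subunits of the BAF remodelling complex, used opposite donors, with group means of 12.7% to 19.3% and 95.1% to 96.8%. Cbfb, the partner of RUNX factors, was at 78.0% in R6/2 WT and 81.3% in R6/2 HD mice, without overlap but with an adjusted p of 0.165. Cabin1, which binds calcineurin, had a share between 2.54% and 5.69% in every mouse. Its 4 Q175 HET mice (mean 2.84%) lay below every Q175 WT mouse (mean 3.63%), but the change of -0.36 did not pass (adjusted p = 0.420). For the transcription factors Nfib, Bcl11a and Nfatc1 the lowest totals were 251, 74 and 34 counts in a mouse, so small changes could not be seen.

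Among genes that bind or process RNA, Cnbp changed in both R6/2 HD and Q150 HOMO mice. Cnbp is a zinc-finger protein that binds nucleic acids. The short share of Cnbp was 51.0%, 50.5% and 52.4% in R6/2 WT and 57.3%, 57.1% and 56.9% in R6/2 HD mice, with a change of 0.34 (SE 0.09, adjusted p = 0.0131). In the Q150 set it was 50.4%, 51.3%, 48.6%, 48.8% and 48.0% in WT, 54.8%, 55.2%, 53.8% and 49.9% in HET and 58.1%, 56.4%, 53.7% and 51.8% in HOMO mice. The HOMO mice lay above all WT mice (0.32, SE 0.10, adjusted p = 0.0194), and 1 HET mouse lay among the WT. In the Q175 set the Cnbp share was 48.8% to 50.7% in WT, 50.2% to 50.7% in HET and 52.1%, 52.3% and 55.0% in HOMO mice, without overlap between HOMO and WT, but the change of 0.20 did not pass (SE 0.08, adjusted p = 0.153). Both calls, in R6/2 HD and Q150 HOMO, were lost when each mouse was centred on its median event, with changes of 0.19 (adjusted p = 0.226) and 0.12 (adjusted p = 0.412). The R6/2 call was also lost without WT 4 (adjusted p = 0.0529), and the Q150 call without HOMO 1 (0.0820) or HOMO 2 (0.0557).

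Hnrnph3, an hnRNP that itself takes part in splicing, had group means of 19.2% to 24.6% and passed nowhere. A cassette exon of the same gene, listed under the older symbol Hnrph3, rose toward skipping by 0.44 in R6/2 HD (adjusted p = 0.0329) and 0.68 in Q150 HOMO mice (adjusted p = 0.000576). The nucleoporin Nup98 had group means of 45.5% to 50.5%. Cdkn2aip, which interacts with the ARF tumour suppressor, was at 56.5% ± 1.9 in Q175 WT and 51.9% ± 0.79 in Q175 HOMO mice, without overlap and with an adjusted p of 0.0842. Adar, an RNA-editing enzyme, had only 4 short counts in its lowest mouse, and the zinc-finger gene Zfp511 used mostly the downstream donor, with group means of 3.79% to 5.28%. Its R6/2 HD change of -0.45 (adjusted p = 0.286) became -0.82 without HD 860 and then passed (adjusted p = 0.0250), as did its difference from Q175 HOMO mice (-0.76, adjusted p = 0.0426).

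Among cytoplasmic proteins, Sat1 rose in R6/2 HD and Q150 HOMO mice. Sat1 is the acetyltransferase that starts polyamine breakdown. Its short share was 88.5%, 90.8% and 89.3% in R6/2 WT and 95.8%, 96.5% and 96.0% in R6/2 HD mice. The log2 ratio rose by 1.52 (SE 0.18, adjusted p = 8.02e-05), the largest among the 5 alternative 5′ events that passed in R6/2 HD mice.

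In the Q150 set the Sat1 share was 91.8%, 88.2%, 87.5%, 89.0% and 89.0% in WT, 93.1%, 94.1%, 93.5% and 90.2% in HET and 96.0%, 94.4%, 93.8% and 93.1% in HOMO mice. The HOMO mice lay above all WT mice, with a change of 1.04 (SE 0.19, adjusted p = 0.000465). The HET change was 0.65 (SE 0.19, adjusted p = 0.0601), and it passed with the series of mouse numbers as a term (0.60, adjusted p = 0.0194), with the compared groups alone (adjusted p = 0.0471), and without WT 1 (0.0492), HET 4 (0.0250) or HOMO 1 (0.0457). In the Q175 set the means were 90.1% ± 1.0, 91.4% ± 0.62 and 92.3% ± 0.43 in WT, HET and HOMO mice, and the HOMO change of 0.40 did not pass (adjusted p = 0.112). A separate Sat1 cassette event rose toward skipping by 1.63 in R6/2 HD (SE 0.50, adjusted p = 0.0270) and by 1.45 in Q150 HOMO mice (SE 0.37, adjusted p = 0.00675).

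Clec16a, a regulator of endolysosomal traffic and mitophagy, shifted toward its high-scoring downstream donor. Its short share was 67.3%, 65.2%, 66.5%, 66.5% and 65.3% in Q150 set WT, 59.3%, 59.5%, 61.7% and 61.4% in HET and 49.6%, 48.2%, 52.8% and 54.8% in HOMO mice. The 3 groups did not overlap. The log2 ratio fell by 0.35 in HET (SE 0.09, adjusted p = 0.0271) and by 0.89 in HOMO mice (SE 0.09, adjusted p = 2.95e-07). HOMO and HET mice differed by -0.53 (SE 0.09, adjusted p = 0.00274), a contrast in which 2.18% of all events passed, and this call was lost without the variance trend (adjusted p = 0.0512). The HET call was lost without WT 1, WT 3, WT 4, HET 1 or HET 2, with adjusted p of 0.0572 to 0.0923.

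In the Q175 set the Clec16a share was 71.8%, 74.1%, 73.3%, 72.7% and 73.0% in WT and 71.9%, 74.1%, 73.8% and 72.4% in HET mice. It was 69.4%, 68.5% and 68.1% in HOMO mice, below all WT (-0.30, SE 0.08, adjusted p = 0.0142). The call was lost without HOMO 2 (0.0627) or HOMO 3 (0.0778), and with the series of mouse numbers as a term (-0.29, adjusted p = 0.108). In R6/2 the share was 67.3%, 68.5% and 65.7% in WT and 66.3%, 58.2% and 61.7% in HD mice, which overlapped (-0.32, SE 0.12, adjusted p = 0.0677), and the change passed without HD 860 (-0.45, adjusted p = 0.00581) and with centring on the median event (-0.46, adjusted p = 0.0286).

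Klc1 encodes a light chain of the kinesin-1 motor. In the Q175 set its short share was 38.4%, 38.0%, 40.1%, 42.6% and 46.0% in WT, 39.3%, 41.9%, 36.2% and 40.4% in HET and 48.1%, 51.4% and 50.2% in HOMO mice. The HOMO mice lay above all others (0.52, SE 0.09, adjusted p = 0.000129) and differed from HET mice by 0.61 (SE 0.09, adjusted p = 6.98e-05), a contrast in which 0.816% of all events passed and whose Klc1 call was lost without the variance trend (adjusted p = 0.155). All Q175 HOMO mice carry mouse numbers of the higher series, as do WT 9 and WT 10, and all HET mice carry numbers of the lower one. Within the higher series HOMO exceeded WT by 0.33, and with the series as a term the change was 0.32 (adjusted p = 0.0563) against WT and 0.29 (adjusted p = 0.617) against HET.

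In the Q150 set the Klc1 share was 37.1%, 37.4%, 37.6%, 38.5% and 45.4% in WT, 38.9%, 42.7%, 41.0% and 46.3% in HET and 44.1%, 41.1%, 48.7% and 47.8% in HOMO mice. WT 5 lay among the HOMO mice, and the change was 0.37 (SE 0.11, adjusted p = 0.0194). The call was lost without HOMO 3 (0.0757) or HOMO 4 (0.0616) and with centring on the median event (0.17, adjusted p = 0.343). In R6/2 the share was 42.2%, 40.4% and 46.8% in WT and 51.1%, 43.3% and 55.1% in HD mice (0.39, adjusted p = 0.0711), and without HD 868 it passed (0.58, adjusted p = 0.00381).

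Trio is a guanine nucleotide exchange factor that activates small GTPases. The short share of Trio was 87.1%, 84.1%, 86.0%, 84.8% and 84.9% in Q150 set WT, 80.8%, 83.4%, 81.3% and 81.9% in HET and 80.6%, 80.2%, 78.9% and 81.9% in HOMO mice. Both mutant groups lay below all WT mice, and the log2 ratio fell by 0.51 in HOMO (SE 0.11, adjusted p = 0.00246) and changed by -0.38 in HET mice (SE 0.11, adjusted p = 0.0679). The HET change passed with the series of mouse numbers as a term (-0.38, adjusted p = 0.0220) and with centring on the median event (-0.48, adjusted p = 0.0415). The Q175 set had means of 83.4% to 83.8%. In R6/2 the Trio share was 85.2%, 82.1% and 84.4% in WT and 79.3%, 81.5% and 83.4% in HD mice, which overlapped (-0.25, SE 0.15, adjusted p = 0.244). Add1, an adducin of the spectrin-actin skeleton, had a share of 98.6% to 99.5% in every mouse, with as few as 6 long counts.

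The Q150 set also holds mouse numbers of a lower and a higher series, with 3 WT and 2 HOMO mice in the lower and 2 of each in the higher. Within the lower and the higher series, the HOMO change was -1.04 and -0.73 for Clec16a, 1.26 and 0.83 for Sat1, and 1.31 and 0.90 for Whsc1l1. For Trio it was -0.56 and -0.45, for Cnbp 0.41 and 0.25, and for Klc1 0.31 and 0.37. The direction was the same in both series for all 6, with the smaller change in the higher series for each except Klc1.

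The level of each junction in CPM was fitted as well, and it also moves when the level of the whole event does. In R6/2 HD mice the Sat1 long junction fell by 1.06 on the log2 scale and the short junction rose by 0.46. The Skil long junction fell by 0.91, with a short junction change of 0.09 that did not pass. For Whsc1l1 the short junction rose by 0.86 and the long one fell by 0.33. In all, 7 of 20 short junctions passed, against 36.4% of all short junctions, and 10 of 20 long ones, against 35.8%. The others were the short junctions of Klc1 (0.68), Hnrnph3 (0.42), Cnbp (0.42), Cdkn2aip (0.41) and Smarcc2 (0.34), and the long junctions of Hnrnph3 (0.56), Smarcb1 (0.48), Cdkn2aip (0.38), Zfp511 (0.32), Hmgn3 (0.30), Klc1 (0.29) and Cabin1 (-0.37). Of these other events, only Cnbp and Hmgn3 passed in their ratio. For the rest the summed level passed: Hnrnph3 (0.53), Klc1 (0.48), Smarcb1 (0.45), Cdkn2aip (0.40), Smarcc2 (0.32), Zfp511 (0.30) and Cabin1 (-0.36). It also passed for Sat1 (0.36), Whsc1l1 (0.31) and Cnbp (0.27), and for 44.4% of all events.

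In Q150 HOMO mice the Clec16a short junction fell by 0.41 and the long junction rose by 0.48, with a summed change of -0.04. The Sat1 long junction fell by 0.62 and the short one rose by 0.42, and the short junctions of Whsc1l1 and Klc1 rose by 0.67 and 0.58. No other junction of the 20 events passed. Of all junctions, 21.8% of short and 10.9% of long ones passed there. The summed level of Klc1 rose by 0.37 (adjusted p = 0.0234), and 14.1% of all events passed in summed level. In Q150 HET mice the Klc1 short junction rose by 0.45 (adjusted p = 0.00931) and the Trio short junction fell by 0.26 (adjusted p = 0.0492), and 2.86% of all short junctions passed. In Q175 HOMO mice the long junctions of Clec16a, Cdkn2aip and Smarcb1 rose by 0.27, 0.28 and 0.23. The short junctions of Klc1 and Whsc1l1 rose by 0.52 each, with 9.14% of short and 9.19% of long junctions passing. Of these events, only Clec16a and Klc1 passed in their ratio in Q175 HOMO mice. The summed level rose for Whsc1l1 (0.35, adjusted p = 0.0224) and Klc1 (0.23, adjusted p = 0.0281), and 12.8% of all events passed in summed level.

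The changes were also set against each other between models by an interaction in limma. Between R6/2 HD and Q150 HOMO mice 3 of 19 events differed, against 6.96% of all events, and these were Skil (0.77, adjusted p = 0.0234), Hmgn3 (-0.59, 0.0211) and Clec16a (0.57, 0.0208). All 3 calls were lost without the variance trend (adjusted p of 0.0512 to 0.0882) and without R6/2 HD 860. Hmgn3 was also lost without R6/2 WT 3, WT 6 or HD 869, Clec16a without WT 6, and Skil without WT 4 or HD 868. Between R6/2 HD and Q175 HOMO mice 4 of 20 differed, against 13.0%, and these were Sat1 (1.12, adjusted p = 0.000592), Whsc1l1 (0.89, 0.0124), Skil (0.87, 0.00860) and Hmgn3 (-0.45, 0.0328). Whsc1l1 and Hmgn3 were lost without the variance trend (adjusted p = 0.0504 and 0.0620) and without R6/2 WT 6, and Hmgn3 also without R6/2 WT 3, HD 860, HD 869, knock-in WT 9, Q175 HOMO 2 or Q175 HOMO 3. Between Q150 and Q175 HOMO mice 1 of 19 differed, Clec16a (-0.59, adjusted p = 0.00476), against 3.41%. The models differ in age, transgene and file set as well.

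A picked list of genes for 5′ splice site recognition and its regulators, chosen with earlier results known and not covering all RNA-binding proteins, was counted as well. It takes in U1-related genes (Luc7l2, Prpf39), Tia1 and Tial1, and families such as SR proteins, hnRNPs, Rbfox, Mbnl, Celf, Elavl and Ptbp genes, and had 38 events of their own over the 3 sets, 37 in each. A U2af1 measurement listed under 2 types was counted once, which leaves 36 in each set, 1 of them the Hnrnph3 event above. In R6/2 HD mice 18 of 36 passed (against 28.6% of all events), 13 of them toward the short form, as did 368 of the 498 events that passed in all. In Q150 HOMO mice 11 of 36 passed (30.6%, against 23.9%), 10 of them toward the short form, as did 354 of 427 in all. The counts were 6 of 36 in Q150 HET (16.7%, against 3.47%), 1 of 36 in Q175 HET (2.78%, against 0.598%) and 4 of 36 in Q175 HOMO mice (11.1%, against 7.07%). The list's median change was 0.200 in R6/2 HD, against 0.180 for all events, and 0.211 in Q150 HOMO mice, against 0.192. Luc7l2, whose yeast relative is a U1 component, had an event that fell by 0.33 in R6/2 HD mice (adjusted p = 0.0433), with changes of 0.12 in Q150 HET, -0.03 in Q150 HOMO, 0.03 in Q175 HET and -0.06 in Q175 HOMO mice that did not pass. Prpf39, whose yeast relative is also a U1 component, had an event that fell by 0.75 in R6/2 HD mice (adjusted p = 0.0172) and passed in no other comparison with WT. The events of Tia1 and Tial1, which help U1 to bind weak donors, passed in none of the 5 comparisons with WT, with changes in R6/2 HD mice of 0.04 for Tia1 and of 0.26 and -0.51 for Tial1.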

How the data were processed

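RASL-seq libraries were made by the authors from total cortex RNA, 1 per mouse. The deposited values, of the unit recorded as other, are short and long junction counts per event with no normalization, and commas used as digit separators were removed. Because of those commas a count model was not the main test. The submitters' processing notes name mm10; the aligner is not given in the sources used here. No molecular identifiers are stated, so intervals would cover counting error only. Every listed count was at least 4.

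The events were taken by their type alone, without their values. The type and the lists were picked with earlier results of these data known. Groups came from the labels; titles call all knock-in mice Q150, so the line was taken from the glutamines per allele, and the WT mice were split by file set. The methods give other numbers of HOMO mice than the labels, and 1 Q175 HET mouse carries different numbers in title and file. The labels name separate mice.

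For each mouse, log2((short + 0.5) / (long + 0.5)) was fitted by limma 3.58.1 (R 4.3.3) over all events of the set, with a variance trend on counts and Benjamini-Hochberg adjustment. A mean of at least 10 counts was required and removed no event. The pseudocount understates changes of junctions with few counts. Junction levels were fitted as log2 CPM. All alternative 5′ splice site events were named. No 2 mice of a group held identical values. Alternatives were a pseudocount of 5, a mean of at least 50 counts or none, a quasi-binomial model, no variance trend, centring on the median event, the series of mouse numbers as a term, the compared groups alone, and leaving out each mouse. Scripts were tested on simulated data.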

Additional observations from a re-analysis of the deposited data

Results flagged for a closer look

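Log2 ratios of 102 groups of 4 or 5 mice were tested event by event. In 2 groups, the gap of a mouse to its nearest neighbour, divided by the range of the group, exceeded the 95% critical value of Dixon's test. Chance gives that in about 1 of 20 groups. The Klc1 short share of knock-in WT 5 was 45.4%, against 37.1% to 38.5% in the other Q150 set WT mice. The Cabin1 share of knock-in WT 10 was 3.04%, against 3.66% to 3.92% in the other Q175 set WT mice, and rested on 72 short counts.

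HOMO and HET mice differed by -0.53 for Clec16a in the Q150 line and by 0.61 for Klc1 in the Q175 line, by limma's test. All Q175 HOMO mice carry numbers of the higher series and all Q175 HET mice of the lower, and with the series as a term the Klc1 difference was 0.29 (adjusted p = 0.617). The change in R6/2 HD differed from that in Q150 HOMO mice by -0.59 for Hmgn3, 0.57 for Clec16a and 0.77 for Skil. It differed from that in Q175 HOMO mice by 1.12 for Sat1, -0.45 for Hmgn3, 0.87 for Skil and 0.89 for Whsc1l1. The change in Q150 HOMO differed from that in Q175 HOMO mice by -0.59 for Clec16a.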

How the results depend on the processing

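Of 624 alternative values of events that had passed, 556 stayed past the threshold in the same direction, 68 did not and 0 reversed. Without the variance trend the counts that passed were 3 in R6/2 HD, 0 in Q150 HET, 0 in Q175 HOMO, 0 for the Q175 slope, 0 for HOMO against HET in either line, 0 for R6/2 against Q150 HOMO and 2 for R6/2 against Q175 HOMO. In Q150 HET, centring gave 2, the series of mouse numbers as a term 4 and fitting the compared groups alone 2. With the series as a term Q175 HOMO, the Q175 slope and Q175 HOMO against HET each gave 0. The difference in mean short share from WT was 0.589 points from summed counts and 0.499 by the median over events in R6/2 HD, 0.422 and 0.0723 in Q150 HET, 0.832 and 0.961 in Q150 HOMO, -0.340 and -2.05 in Q175 HET, and 1.70 and -0.742 in Q175 HOMO mice, in the same order.

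Leaving out each mouse in turn gave 4 to 7 events in R6/2 HD, 0 to 2 in Q150 HET, 5 to 6 in Q150 HOMO, 0 in Q175 HET, 1 to 2 in Q175 HOMO, 5 to 6 for the Q150 slope and 0 to 2 for the Q175 slope (0 without Q175 HOMO 3; the Clec16a slope was lost without any 1 of WT 7 to 10 or Q175 HOMO 1 to 3). It gave 1 to 2 for HOMO against HET in each line, 0 to 3 for R6/2 against Q150 HOMO (0 without R6/2 HD 860, 1 without R6/2 WT 6), 2 to 4 for R6/2 against Q175 HOMO (2 without R6/2 WT 6) and 1 to 2 for Q150 against Q175 HOMO. Differences in mean short share ran from 1.64 to 2.15 points in R6/2 HD, 0.380 to 1.07 in Q150 HET, 0.514 to 1.5 in Q150 HOMO, -0.342 to -0.0382 in Q175 HET and 0.345 to 0.803 in Q175 HOMO mice. The cause was not tested. No paired analysis was possible because the mouse numbers of the labels are not shared between groups. Junctions with under 20 counts (Adar, Add1, Bcl11a, Smarcc2 and Nfatc1 in some mice) limit what could be seen.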
